A study of Mus musculus with 69 samples.

Results

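The response of the male hippocampus to an inhibitor of Toll-like receptor 7 (TLR7) was examined in mice of the genotype labelled PSUK+. The 9 male libraries with this genotype, chosen by their labels among 69 libraries in the series, were 6 from males given an inhibitor and 3 from control males, set beside 5 inhibitor and 3 control libraries of PSUK+ females. The series concerns the effects of sex on demyelination or tau pathology; the labels describe neither the PSUK+ genotype nor the inhibitor, its vehicle, its dose or the length of treatment, and they call the mice aged. Inhibitor males 1 to 5 and all 3 control males were 5.5 months old and inhibitor male 6 was 6.06 months old, while females were 5.5 to 6.85 months old. The labels give the tissue as hippocampus but the RNA as nuclear and from microglia. No label states that each library is a separate animal, so the p-values measure the spread between these libraries, which may be in part technical.

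TLR7 is a receptor in endosomes that recognises single-stranded RNA. Through the adaptor MyD88 it activates IRF7, which induces type I interferons, and NF-kB, which induces cytokines; in brain it is found mainly in microglia. Heat shock genes encode chaperones that fold and refold proteins and are induced when proteins misfold, and immediate early genes are induced within minutes by neuronal activity or growth factors. Glucocorticoids, the adrenal stress hormones, induce a further set that includes kinases and feedback inhibitors of growth factor signalling.

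Each library was a 3′ mRNA library with raw counts per gene. The male libraries held 14.4 to 21.03 M counts (inhibitor) and 15.3 to 15.97 M counts (control), and 17128 of 54429 genes in the table passed the filter on low counts. Levels below are counts scaled to library size (CPM) with TMM scaling, not corrected for gene length. Fold changes are log2 of inhibitor over control with their standard error (SE), from edgeR's quasi-likelihood test over all 17 PSUK+ libraries, and a gene counts as called where its p, adjusted by the Benjamini-Hochberg method across the 17128 genes, was under 0.05. The libraries held RNA of neurons and glia. Summed over 33 excitatory synapse genes they held 25783 to 37849 CPM in inhibitor males and 23350 to 29349 CPM in control males, over 20 astrocyte genes 16215 to 21861 CPM and 7276 to 14515 CPM, and over 26 homeostatic microglia genes 3132 to 3898 CPM and 1874 to 3335 CPM, with no gene of the 3 lists at 0 in all male libraries. In bulk RNA, fewer cells of a type and less RNA per cell cannot be told apart.

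Control male 3 stood apart from the other male libraries. Mitochondrially encoded genes took 3.31% of its counts, against 8.94% to 12.7% in inhibitor males and 11.7% and 8.41% in control males 1 and 2. On the first principal component, with 33.8% of the variance, control male 3 lay at -45.3, inhibitor males at 8.18 to 35.01 and the other control males at 7.67 and 6.97. Inhibitor males 1 and 2 differed from the rest in another way. They held 11.1 and 2.90 CPM of Xist, the RNA of the inactive X chromosome, against at most 0.342 CPM in the other male libraries and at least 282 CPM in females. All male libraries held the Y-linked gene Ddx3y, at 44.9 to 52.9 CPM with inhibitor and 52.3 to 60.6 CPM in controls. Ttr, a choroid plexus gene, stood at 52.9 and 704 CPM in inhibitor males 1 and 2, at 1243 to 4254 CPM in inhibitor males 3 to 6 and at 3095 to 3349 CPM in control males. The Xist and Ddx3y values are CPM without TMM scaling, and those of Ttr are CPM with it.

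In male hippocampus 18 of 17128 genes were called, 0.105% of those tested. Of these, 12 were lower with inhibitor (0.0701%) and 6 were higher (0.035%). The lower genes were led by the inducible chaperones Hspa1a and Hspa1b and their co-chaperone Dnajb1, and by 4 genes of the glucocorticoid response, Sgk1, Cdkn1a, Errfi1 and Ddit4. The higher genes included the orphan nuclear receptor gene Nr2c2. At an unadjusted p under 0.05 there were 3017 genes (17.6%). The number of calls rested on single libraries: without control male 3 only Dnajb1 was called, with 1060 genes at an unadjusted p under 0.05, and all 18 kept their sign. Without inhibitor males 1 and 2 together 2 genes were called, Dnajb1 among them (-1.08, edgeR adjusted p = 0.0198), while Hspa1a had -2.36 and Nr2c2 0.69, neither called (adjusted p = 0.217 and 0.0884). Leaving out inhibitor male 2, 4 or 6 also left 1 call each, and leaving out control male 2 left 5. It rested as much on the fit, since the 9 male libraries alone gave 329 calls (1.98% of 16628 genes), 163 higher (0.98%) and 166 lower (0.998%), among them all 18.

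Of the 22 heat shock genes tested, Hspa1a, Hspa1b and Dnajb1 were called lower with the inhibitor. Hspa1a and Hspa1b encode inducible HSP70, and they lie beside each other on mouse chromosome 17. Their promoters are shown because the pair fell by nearly the same amount. From 250 bases before to 50 after the transcription start, both on the minus strand, the RefSeq windows (GRCm38.p6) are chr17:34972107-34972406 for Hspa1a and chr17:34959189-34959488 for Hspa1b, and 296 of 300 bases are the same. Capitals mark the 4 bases that differ.
Hspa1a: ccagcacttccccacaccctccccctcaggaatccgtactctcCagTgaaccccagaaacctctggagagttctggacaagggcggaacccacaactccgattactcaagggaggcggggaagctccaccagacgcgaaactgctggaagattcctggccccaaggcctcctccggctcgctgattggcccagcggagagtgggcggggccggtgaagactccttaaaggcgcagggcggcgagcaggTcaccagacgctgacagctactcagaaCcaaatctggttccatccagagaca
Hspa1b: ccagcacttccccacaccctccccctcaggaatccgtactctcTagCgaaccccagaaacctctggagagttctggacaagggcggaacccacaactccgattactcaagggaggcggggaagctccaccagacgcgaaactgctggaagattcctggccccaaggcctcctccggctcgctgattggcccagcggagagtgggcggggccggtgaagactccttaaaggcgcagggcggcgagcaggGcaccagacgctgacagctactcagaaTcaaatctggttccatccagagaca
Heat shock factor binds repeats of GAA in alternating orientation. The 3-repeat form GAANNTTCNNGAA, searched on both strands, was in 198 of 32851 RefSeq promoter windows (0.603%), in 5 of 23 windows of the heat shock list (21.7%) and in 0 of 23 windows of 15 called genes, those of Hspa1a, Hspa1b and Dnajb1 included. The 2-repeat form GAANNTTC, which lies within the longer motif, was searched after that result was known. It was in 2582 windows in all (7.86%), in 11 of 23 windows of the heat shock list (47.8%) and in 4 of 23 windows of the called genes (17.4%), 1 window each of Hspa1a and Hspa1b and 2 windows of Sgk1. Dnajb1 had no match. A match is a string of letters and not a shown site. Only exact strings were searched, so a window without a match may still hold imperfect repeats.

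Hspa1a (ENSMUSG00000091971, GRCm38 chromosome 17, 34969190 to 34972156) stood at 2.18 to 3.42 CPM in inhibitor males, with a median of 2.91, against 11.2, 5.25 and 27.0 CPM in the 3 control males. Hspa1b (ENSMUSG00000090877, GRCm38 chromosome 17, 34956436 to 34959238) stood at 4.14 to 7.70 CPM with inhibitor, median 4.91, against 17.9, 10.0008 and 47.3 CPM in controls. Every inhibitor library was below every control library for both genes, and control male 3 was the highest by far. Hspa1a fell by 2.33 ± 0.39 on the log2 scale (SE, edgeR adjusted p = 0.0367) and Hspa1b fell by 2.21 ± 0.40 (adjusted p = 0.0384). Without control male 3 the fold changes were -1.51 and -1.37, and neither was called (adjusted p = 0.523 and 0.672). The transcripts of the pair share much of their length, but no stretch of 50 bases in the last 500 bases of either occurs in the other, so reads from the 3′ end can tell them apart.

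Dnajb1 (ENSMUSG00000005483, GRCm38 chromosome 8, 83608193 to 83612653), the HSP40 co-chaperone that hands substrates to HSP70, gave the lowest p of all genes. It ranged from 30.6 to 42.99 CPM in inhibitor males, median 35.6, against 62.4, 64.4 and 94.8 CPM in control males. The groups were far apart and control males 1 and 2 were almost equal. The fold change was -1.04 ± 0.13 (edgeR adjusted p = 0.00371). It was called in 21 of 21 alternatives, with fold changes of -1.15 to -0.82; without control male 3 it was -0.82 with an adjusted p of 0.0423.

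Of the 22 genes of the heat shock list, all of which were tested, 3 were called lower, 0 higher, and 20 had a fold change below 0. Of all 17128 genes 0.0701% were called lower and 8382 had a fold change below 0. The median of the list was -0.41, beside 0.0087 over all genes tested. Groups did not overlap, with inhibitor below control, for 10 of 22 members, against 5.21% of all genes. The list was first written after these data had been seen, so these shares describe the list and do not test it. Among members not called, Hsph1, an exchange factor for HSP70, had -0.77 ± 0.24 (adjusted p = 0.199) and the cytosolic chaperones Hsp90aa1 and Hspa8 had -0.55 ± 0.17 and -0.53 ± 0.18 (adjusted p = 0.199 and 0.206). The small heat shock protein gene Cryab, at 0.09, and the mitochondrial co-chaperonin gene Hspe1, at 0.33, were the 2 members above 0. The summed level of the list was 3632 to 4315 CPM in inhibitor males, against 4608, 4981 and 6718 CPM in control males 1, 2 and 3. Without control male 3 the median of the list was -0.17 and 20 members were still below 0. With the mitochondrial share of each library as a covariate the median was -0.20 and 3 members were called.

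Across the 17 PSUK+ libraries of both sexes, the libraries with the lowest mitochondrial shares held more Hspa1 RNA than most others, with overlapping ranges. The 4 libraries with a mitochondrial share under 5% held 17.8 to 74.3 CPM of Hspa1a and Hspa1b together, and the other 13 held 6.32 to 29.1 CPM. Within males, inhibitor males held 6.32 to 11.1 CPM at shares of 8.94% to 12.7%. Control male 1 held 29.1 CPM at 11.7%, within that range of shares, and control male 2 held 15.3 CPM at 8.41%, below it. The part of the mitochondrial share in the male difference was not tested beyond the covariate fit.

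**Figure D1:**
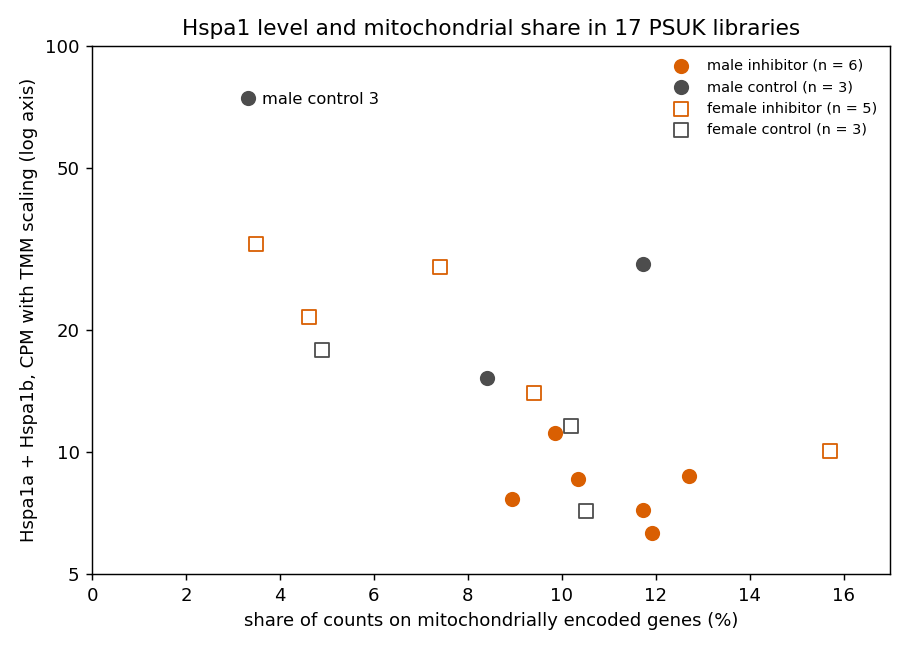
Summed level of Hspa1a and Hspa1b (CPM with TMM scaling, log axis) against the share of counts on mitochondrially encoded genes (%), 1 point per library, for male inhibitor, male control, female inhibitor and female control libraries. Male control 3 lies at 3.31% and 74.3 CPM; the other 2 male controls, at 29.1 and 15.3 CPM, lie above the 6 male inhibitor libraries at 6.32 to 11.1 CPM.

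Genes of the glucocorticoid response were split. Of 25 tested, 4 were called lower (0.0701% of all genes were), 0 were called higher, and 12 lay above 0 and 13 below, with a median of -0.06. This list too was first written after these data had been seen, so its counts describe it and do not test it. By limma-voom, and by edgeR without control male 3, 0 of the 25 were called. DESeq2 called 6, and edgeR in the male libraries alone called 8, all lower. In the male libraries alone 0.998% of all genes were called lower. In the fit of all 17 libraries 12 of the 25 had an unadjusted p under 0.05, which 17.6% of all genes had. Sgk1 (ENSMUSG00000019970, GRCm38 chromosome 10, 21882184 to 21999903), the serum- and glucocorticoid-regulated kinase, ranged from 43.2 to 58.1 CPM in inhibitor males, median 50.5, against 81.4, 190.9 and 155.6 CPM in control males. Here control male 2 and not control male 3 was the highest, and the groups did not overlap. Sgk1 had a fold change of -1.50 ± 0.27 (edgeR adjusted p = 0.0367), and -1.44 without control male 3, where it was not called (adjusted p = 0.317).

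Ddit4, an inhibitor of the kinase mTORC1, stood at 37.1 to 47.9 CPM with inhibitor, median 40.2, against 61.7, 82.4 and 77.2 CPM in controls, with a fold change of -0.83 ± 0.14 (edgeR adjusted p = 0.0367). Errfi1, a feedback inhibitor of the EGF receptor, stood at 19.8 to 24.5 CPM, median 21.9, against 29.8, 44.8 and 56.9 CPM, with -1.01 ± 0.16 (edgeR adjusted p = 0.0219). Cdkn1a, which encodes the cell cycle inhibitor p21, stood at 3.72 to 5.65 CPM, median 4.53, against 5.85, 11.4 and 11.2 CPM, with -1.07 ± 0.20 (edgeR adjusted p = 0.0427). In all 3 genes every inhibitor library was below every control library, and for Cdkn1a the highest inhibitor library came close to control male 1. Without control male 3 the fold changes were -0.80 for Ddit4, -0.78 for Errfi1 and -0.93 for Cdkn1a, none of them called. Of the other classical targets, Per1, a repressor of the circadian clock, had -0.79 ± 0.17 (adjusted p = 0.0856) and Nfkbia, which encodes the NF-kB inhibitor IkBa, -0.99 ± 0.21 (adjusted p = 0.0911). Fkbp5 and Tsc22d3, a co-chaperone and a leucine zipper protein that glucocorticoids induce in many tissues, had -0.14 ± 0.16 and -0.28 ± 0.27, with overlapping groups. Nr3c1, the glucocorticoid receptor gene, had 0.22 ± 0.08 (adjusted p = 0.220).

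The remaining lower genes with a protein product were Dusp5, Sap30 and Slc19a2. Dusp5, a nuclear phosphatase that switches off the kinase ERK, ranged from 8.52 to 11.5 CPM in inhibitor males, median 10.4, against 18.4, 16.6 and 39.0 CPM in control males; its fold change was -1.27 ± 0.24 (edgeR adjusted p = 0.0427) and -0.78 without control male 3. Sap30, a subunit of the Sin3 histone deacetylase complex, ranged from 4.87 to 6.58 CPM, median 5.89, against 9.15, 15.3 and 9.89 CPM, with -0.95 ± 0.17 (edgeR adjusted p = 0.0367). Slc19a2, a thiamine transporter gene, ranged from 9.37 to 13.9 CPM, median 11.8, against 17.4, 20.4 and 21.4 CPM, with -0.73 ± 0.14 (edgeR adjusted p = 0.0427). Groups did not overlap for any of the 3, and for Sap30 control male 2 was the one far above the others. Sap30 had -1.05 and Slc19a2 -0.67 without control male 3, neither of them called.

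The 2 other lower genes were noncoding. The lincRNA gene 9530059O14Rik (ENSMUSG00000097736, chromosome 9, 122572499 to 122679596), which Gm47134 overlaps on the other strand, stood at 0.514 to 1.24 CPM in inhibitor males, median 0.617, against 3.11, 2.63 and 4.18 CPM in control males, with -2.19 ± 0.34 (edgeR adjusted p = 0.0219). Gm22009, a small Cajal body RNA gene inside Kpna4 on the same strand, stood at 0.150 to 0.955 CPM, median 0.330, against 2.80, 2.44 and 3.24 CPM, with -2.77 ± 0.52 (edgeR adjusted p = 0.0427). Groups did not overlap in either, the levels were among the lowest of the called genes, and counts of Gm22009 may belong to Kpna4.

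**Figure D2:**
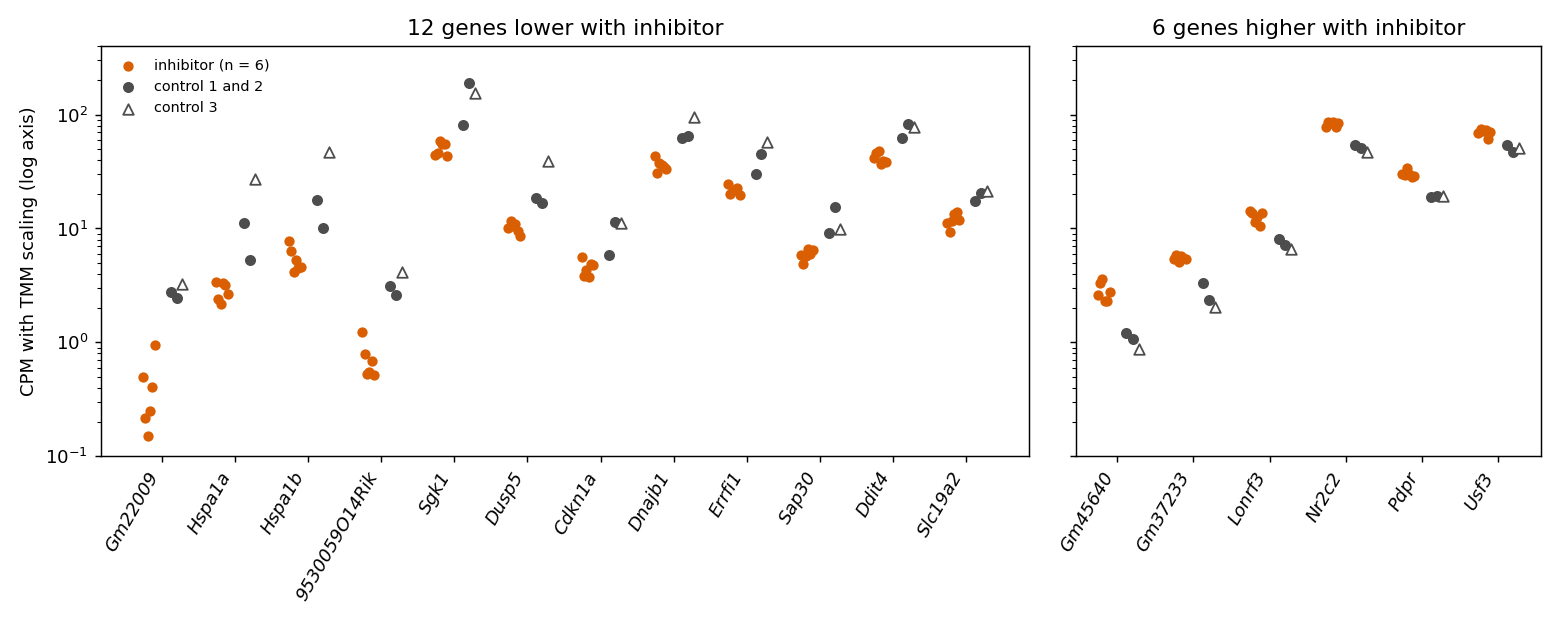
Level (CPM with TMM scaling, log axis) of the 18 genes called in males, 1 point per library, with the 6 inhibitor libraries left of the 3 control libraries of each gene and control 3 as a triangle. The 6 inhibitor libraries lie below all controls in the left panel (Dnajb1 30.6 to 42.99 against 62.4 to 94.8 CPM) and above all controls in the right panel (Nr2c2 77.8 to 86.7 against 47.2 to 54.5 CPM).

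Among the higher genes, Nr2c2 (ENSMUSG00000005893, GRCm38 chromosome 6, 92091390 to 92174294), which encodes the orphan nuclear receptor TR4, ranged from 77.8 to 86.7 CPM in inhibitor males, median 83.7, against 54.5, 51.2 and 47.2 CPM in control males. The spread within each group was small next to the gap between them. The fold change was 0.70 ± 0.10 (edgeR adjusted p = 0.0196), and it was called in 15 of 21 alternatives, though not without control male 3 (0.65, adjusted p = 0.180). Mrps25 and Gm44249 overlap the gene on the other strand, as other annotated genes overlap Hspa1a, Cdkn1a, Dusp5, Errfi1 and Pdpr, and whether counting used strand is not stated.

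Lonrf3, a RING finger protein gene on the X chromosome, stood at 10.4 to 14.2 CPM in inhibitor males, median 13.04, against 8.07, 7.19 and 6.65 CPM in control males (0.79 ± 0.14, edgeR adjusted p = 0.0367). Pdpr, which encodes the regulatory subunit of pyruvate dehydrogenase phosphatase, stood at 28.4 to 33.9 CPM, median 29.6, against 18.8, 19.1 and 19.2 CPM (0.66 ± 0.12, edgeR adjusted p = 0.0367). Usf3, a helix-loop-helix transcription factor gene, stood at 61.2 to 74.7 CPM, median 71.1, against 54.3, 46.4 and 50.7 CPM (0.47 ± 0.09, edgeR adjusted p = 0.0427). Inhibitor libraries were above every control library in all 3 genes, and control male 3 lay close to the other controls. Without it the fold changes hardly moved, at 0.72, 0.66 and 0.47, while the adjusted p rose to 0.385, 0.317 and 0.328. The noncoding Gm45640, an unverified transcript inside Chd9 on the same strand, and Gm37233, a lincRNA gene, had 1.41 ± 0.24 and 1.09 ± 0.19 (edgeR adjusted p = 0.0367 for both). Next in order of p, the phosphatase gene Ptpn4 and the histone acetyltransferase gene Kat6a both had 0.43 ± 0.09 and were not called (adjusted p = 0.0629 and 0.0688).

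The female libraries allowed a test of whether the male response was shared. The difference between the male and the female response was called for 413 genes (2.41%), and the male response was the higher in 288 (1.68%) and the lower in 125 (0.73%). Of the 18 genes called in males, 16 were called in this test and 16 had a female fold change of the opposite sign. The male difference that selected these 18 genes enters the test, so both counts describe them and give no separate support. The share of opposite signs over all genes was not counted. None of the 12 lower genes was called in females (Hspa1a and Sgk1 with edgeR adjusted p = 0.446 and 0.397). Nr2c2, Lonrf3, Pdpr and Gm45640 were called in both sexes, with opposite signs in all 4, out of 15 genes called in females (0.0876%), of which 3 were higher with the inhibitor (0.0175%). Nr2c2 had 0.70 in males and -0.69 ± 0.10 in females (edgeR adjusted p = 0.0145 in females), where it ranged from 40.2 to 57.3 CPM with inhibitor and from 79.6 to 81.4 CPM in controls. Female controls were thus at the level of inhibitor males, and inhibitor females at that of control males. Hspa1a had fold changes of -2.33 (males) and 0.88 (females), and the responses differed by -3.21 ± 0.60 (SE, edgeR adjusted p = 0.0149), and Sgk1 -1.50 and 0.66, which differed by -2.16 ± 0.41 (adjusted p = 0.0153). These differences were -2.39 and -2.10 with control male 3 left out and were no longer called (adjusted p = 0.0595 and 0.0555), whereas that of Nr2c2 was 1.34 and still called (adjusted p = 0.00204). The exceptions were 9530059O14Rik and Gm22009, which were below 0 in both sexes, at -2.19 and -2.77 in males and -1.66 and -1.18 in females.

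Of the 413 genes, 287 were above 0 in males and below 0 in females, 123 the reverse, and 3 had the same sign in both. Selection for a difference between the sexes favours opposite signs, so these counts do not test for opposed responses. Those with the highest male response relative to the female one included Adcy1, Unc13c, Shc3 and Dok6. Adcy1, a calcium-stimulated adenylyl cyclase gene, stood at 1609 to 2605 CPM in inhibitor males, median 2243, against 1169, 1107 and 759 CPM in control males, and had 1.10 in males and -1.08 in females (edgeR adjusted p of the difference = 0.0101). Unc13c, a vesicle priming gene, had 1.67 and -0.96, the neuronal adaptor gene Shc3 1.27 and -1.21, and the adaptor gene Dok6 1.20 and -1.23. The male fold changes of Adcy1, Unc13c, Shc3 and Dok6 were not called by edgeR over the 17 libraries (adjusted p of 0.123 to 0.197), and all 4 were called in the 9 male libraries alone (adjusted p of 0.0126 to 0.0258). At the other end stood, beside Hspa1a, Hspa1b, Sgk1, Dusp5 and Cdkn1a, the cytokine signalling suppressor gene Cish at -0.99 and 0.75 and the neuropeptide precursor gene Vgf at -0.98 and 0.69. Without control male 3, 34 genes were called for the difference, 33 of them among the 413, and without inhibitor males 1 and 2 together 48; with the level of Ttr as a covariate 1 was called. Ttr stood at 17.6, 19.4 and 1415 CPM in the 3 control females and at 3534 to 4381 CPM in inhibitor females, and its part in the difference between the sexes was not tested further.

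**Figure D3:**
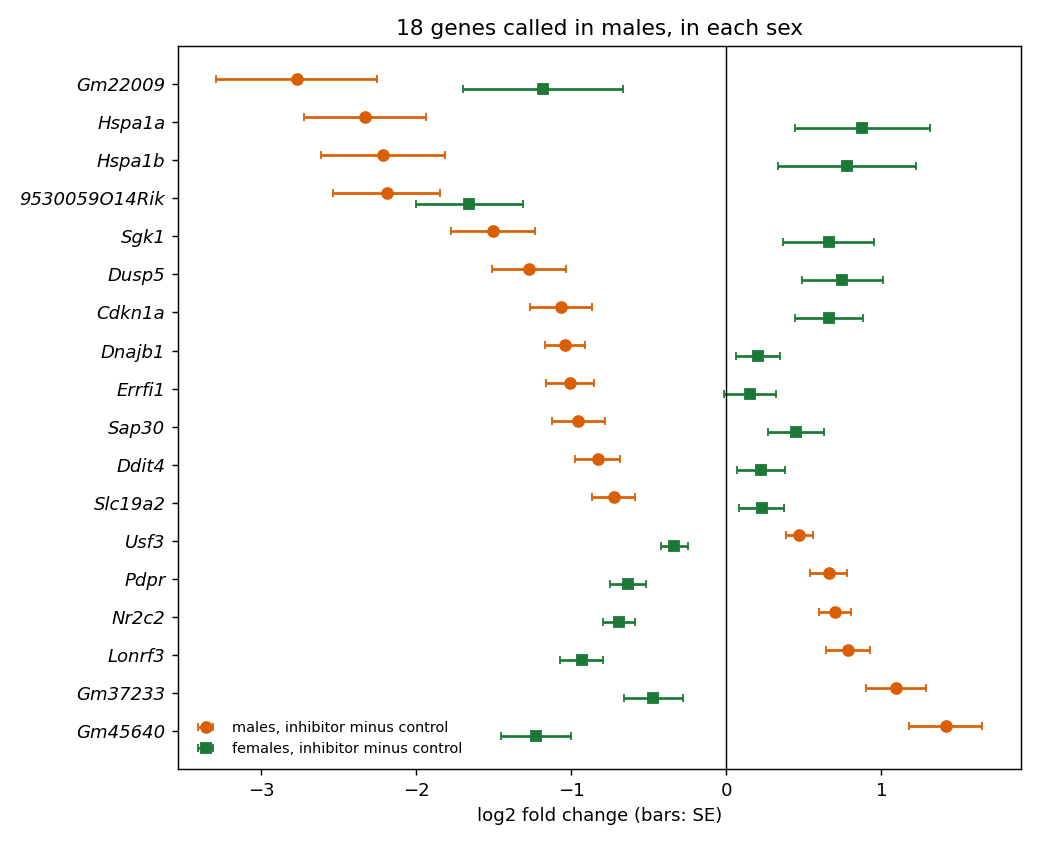
Log2 fold change of inhibitor over control with its SE for the 18 genes called in males, in males (circles) and females (squares). In 16 of 18 genes the female value lies on the other side of 0 from the male value; the exceptions are Gm22009 and 9530059O14Rik.

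Immediate early genes had the lowest median of the gene lists, without a call. Of 24 tested, 0 were called by edgeR although 15 had an unadjusted p under 0.05, which 17.6% of all genes had (2 were called by DESeq2, 0 by limma-voom and 6, all lower, in the 9 male libraries alone), 23 were below 0 and the median was -0.73. In the male libraries alone 0.998% of all genes were called lower. Junb and Jun, which encode subunits of the transcription factor AP-1, had the lowest p. Junb stood at 29.3 to 45.3 CPM in inhibitor males, median 30.9, against 84.4, 51.1 and 102.7 CPM in control males (-1.23 ± 0.27, edgeR adjusted p = 0.0927), and Jun at 62.6 to 76.8 CPM, median 71.3, against 95.2, 105.4 and 147.9 CPM (-0.73 ± 0.20, adjusted p = 0.163). Groups did not overlap for these 2 genes, and over the list inhibitor lay below control without overlap for 5 of 24 members, against 5.21% of all genes. Fos, Egr1 and Nr4a1 had -1.62 ± 0.48, -1.14 ± 0.37 and -0.98 ± 0.29, with overlapping groups. Arc, a synaptic immediate early gene, ranged from 80.7 to 360.5 CPM among inhibitor males, wider than the 170 to 337 CPM of control males. The summed level of the list was 781 to 1330 CPM with inhibitor and 1497, 1126 and 1746 CPM in controls. Unlike the heat shock list, this list kept most of its median without control male 3 (-0.64, with 21 of 24 below 0).

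Neuropeptide and neurotrophin genes had a median of -0.50 over 20 tested, with 16 below 0 and 0 called by edgeR (10 at an unadjusted p under 0.05, 1 called by DESeq2, 0 by limma-voom and 6, all lower, in the male libraries alone). Of all genes 17.6% had an unadjusted p under 0.05, and 0.998% were called lower in the male libraries alone. Npy, the gene of neuropeptide Y, stood at 18.6 to 23.7 CPM in inhibitor males, median 20.3, against 32.7, 38.4 and 44.3 CPM in control males (-0.88 ± 0.21, edgeR adjusted p = 0.127). The neurotrophin gene Bdnf stood at 20.6 to 34.8 CPM, median 27.3, against 36.5, 49.7 and 55.04 CPM (-0.77 ± 0.22, adjusted p = 0.189). Neither pair of groups overlapped, and in the 9 male libraries alone both were called (adjusted p = 0.00477 and 0.0268). Inhibitory neuron genes had a median of -0.28 over 20 tested and were led by Calb2, the calretinin gene, at -1.07 ± 0.25 (adjusted p = 0.122). Excitatory synapse genes had a median of -0.27 over 33 tested, while their summed level was higher on average, at 31873 ± 4369 CPM in inhibitor males (SD, n = 6) and 26753 ± 3080 CPM in control males (SD, n = 3). Without control male 3 the medians of these 3 lists were -0.39, -0.11 and -0.09.

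Astrocyte genes lay the other way. All 20 tested members were above 0, with a median of 0.52 and 0 called by edgeR, DESeq2 or limma-voom (7 at an unadjusted p under 0.05; 1, Slc4a4, called in the 9 male libraries alone with an adjusted p of 0.0441), and groups did not overlap, with inhibitor above control, for 14 of 20, against 5.45% of all genes. An unadjusted p under 0.05 was found for 17.6% of all genes, and 0.98% were called higher in the male libraries alone. Sox9, the astrocyte transcription factor gene, stood at 67.1 to 90.9 CPM in inhibitor males, median 75.2, against 61.1, 44.0035 and 26.1 CPM in control males (0.83 ± 0.25, edgeR adjusted p = 0.191). Slc4a4, a sodium bicarbonate cotransporter gene, stood at 258 to 348 CPM, median 309.6, against 209, 219 and 119.6 CPM (0.75 ± 0.25, adjusted p = 0.206). Control male 3 was the lowest library in both. Without it all 20 were still above 0 and the median was 0.28. Gfap, raised in reactive astrocytes, had 0.55 ± 0.43 (adjusted p = 0.487), with 1042 to 1632 CPM in inhibitor males and 1052, 1149 and 446 CPM in control males. The mitochondrially encoded genes, whose share defined how control male 3 stood apart, had a median of 0.59 over 15 members, and of 0.19 without it.

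**Figure D4:**
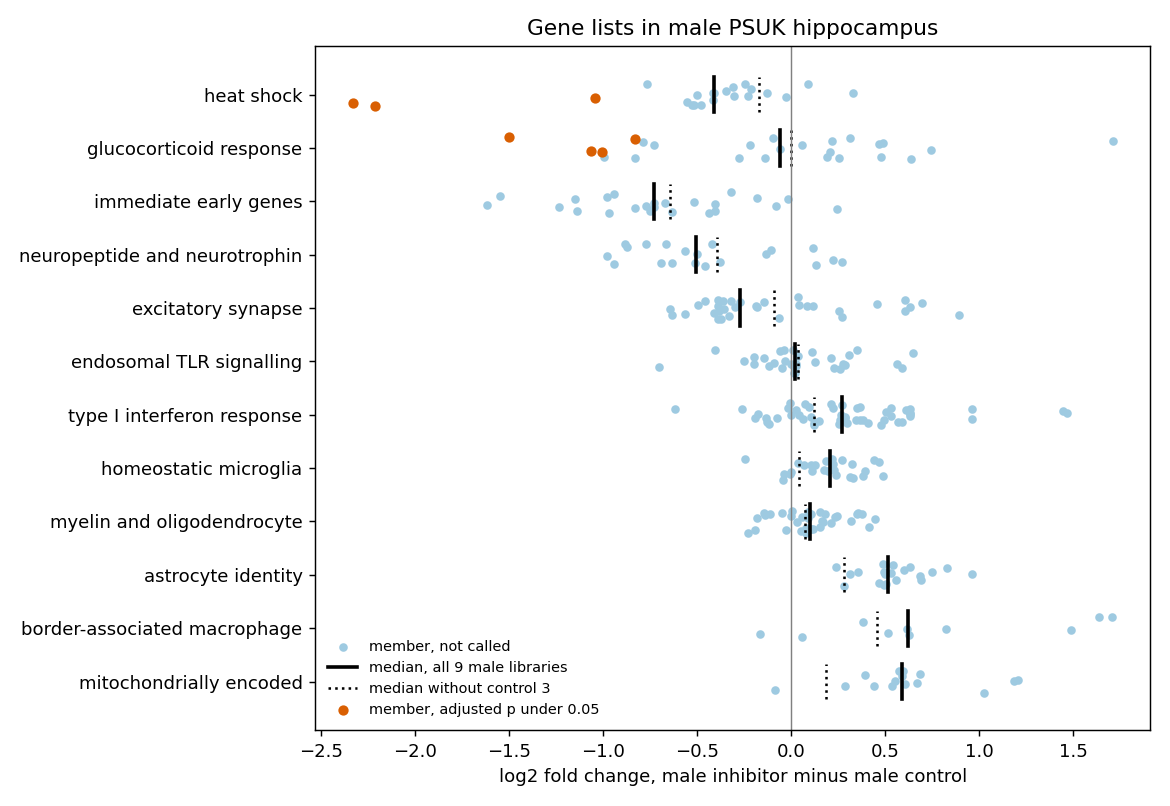
Log2 fold change of inhibitor over control in males for the tested members of 12 gene lists, 1 point per gene, with called genes in orange. Bars give the median of each list with all 9 male libraries and dotted bars the median without control 3: heat shock -0.41 and -0.17, immediate early genes -0.73 and -0.64, astrocyte identity 0.52 and 0.28.

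Genes of TLR7 signalling and of the interferon response were not called in males by edgeR over the 17 libraries. For comparison, 17.6% of all genes had an unadjusted p under 0.05, and 0.98% were called higher in the 9 male libraries alone. Tlr7 (ENSMUSG00000044583, GRCm38 chromosome X, 167304929 to 167330558) was itself low, at 1.58 to 3.21 CPM in inhibitor males, median 2.45, against 1.33, 3.50 and 1.35 CPM in control males (0.26 ± 0.37, edgeR adjusted p = 0.715). Transcript level does not measure receptor activity. Of 32 genes of endosomal TLR signalling tested, 0 were called by edgeR, DESeq2 or limma-voom (5 at an unadjusted p under 0.05), 19 were above 0 and the median was 0.02; the lowest p belonged to Tnfaip3, which encodes the NF-kB inhibitor A20, at -0.70 ± 0.25 (adjusted p = 0.211), and Cnpy3, a chaperone of TLRs, at -0.40 ± 0.15 (adjusted p = 0.223). Of 51 genes of the type I interferon response 0 were called by edgeR and limma-voom and 1 by DESeq2 (4 at an unadjusted p under 0.05), 40 were above 0 and the median was 0.27 (0.12 without control male 3). Irf7 had -0.13 ± 0.49, Ifit3 0.48 ± 0.46 and Isg15 0.63 ± 0.47, all with overlapping groups. Trim25, a ubiquitin ligase gene of RNA sensing, had the lowest p, at 10.2 to 13.3 CPM with inhibitor against 6.99, 6.56 and 4.36 CPM in controls (0.96 ± 0.28, adjusted p = 0.190); in the 9 male libraries alone it was the 1 member called (adjusted p = 0.0189). Cxcl10, an interferon-induced chemokine gene, was under 1.2 CPM in every male library. Of 17 NF-kB and cytokine genes tested, 0 were called by edgeR or limma-voom and 1 by DESeq2, with a median of 0.08. The lowest p belonged to Nfkbia (-0.99 ± 0.21, edgeR adjusted p = 0.0911) and Cebpb (-0.69 ± 0.20, adjusted p = 0.190), without overlap of groups. These 2 were called in the 9 male libraries alone (adjusted p = 0.0189 and 0.0414), where 0.998% of all genes were called lower.

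The agonist experiment of the same series gave a list of TLR7-responsive genes. Hippocampi came from WT mice given the TLR7 agonist gardiquimod or saline, 7 libraries per sex and treatment, with males at 12.12 and females at 9.60 months of age. There, 37 genes were called with both sexes averaged (0.215% of 17218 genes), all higher with the agonist. Of these 33 were tested in the inhibitor experiment. In PSUK+ males 26 of the 33 were above 0 and 7 below, with a median of 0.21 and a range of -0.26 to 1.26, and 0 were called (smallest edgeR adjusted p = 0.418, 0 at an unadjusted p under 0.05; 0 also in the 9 male libraries alone). Over all genes tested 8746 of 17128 were above 0. The agonist list of males only held 38 genes (0.221%), 29 higher and 9 lower with the agonist, all of them tested here. In inhibitor males 23 of the 29 were above 0 (median 0.21) and 6 of the 9 below 0 (median -0.14), with 0 called by edgeR over the 17 libraries. In the 9 male libraries alone 1 of the 9 was called, Hsph1 (adjusted p = 0.0441), at -0.39 with the agonist and -0.77 with the inhibitor. B2m, a component of MHC class I, had 0.50 with the agonist and 0.17 ± 0.18 in inhibitor males, and Irf7 had 1.64 with the agonist and -0.13 ± 0.49 in inhibitor males. The SE of the inhibitor fold change ran from 0.16 to 0.98 over the 33 genes; it was under 0.5 of the agonist's own change for 20 of them and at least as large as it for 2.

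No gene of the other glial lists or of the tau list was called by edgeR or limma-voom. Among all genes 17.6% had an unadjusted p under 0.05, and 1.98% were called in the male libraries alone. Homeostatic microglia genes had a median of 0.21 over 26 tested (0.04 without control male 3; 2 at an unadjusted p under 0.05), with Cx3cr1, the fractalkine receptor gene, at 0.47 ± 0.14 (edgeR adjusted p = 0.190, and called in the 9 male libraries alone with 0.0433). Disease-associated microglia genes had a median of 0.13 over 29, with 6 at an unadjusted p under 0.05 and 1 called in the male libraries alone; Apoe had 0.38 ± 0.27 (adjusted p = 0.448) and Trem2 0.13 ± 0.23 (adjusted p = 0.774). Myelin and oligodendrocyte genes had a median of 0.10 over 34, of which 4 had an unadjusted p under 0.05, with Mbp at 0.32 ± 0.31. Mapt, the tau gene, stood at 307 to 394 CPM in inhibitor males and 367, 292 and 416 CPM in control males (-0.03 ± 0.12, adjusted p = 0.908), and the 18 tau and amyloid genes had a median of -0.09 and 2 at an unadjusted p under 0.05. Border-associated macrophage genes had a median of 0.62 over 10 tested, 3 of them at an unadjusted p under 0.05, 1 called by DESeq2 and 2 in the male libraries alone, with F13a1 at 1.49 ± 0.38 (adjusted p = 0.154) and a summed level of 25.2 to 42.9 CPM in inhibitor males, against 23.01, 21.8 and 17.2 CPM in control males. Of the 12 genes of this list, 8 had a mean under 1 CPM in the male libraries, where counting error is large relative to the level.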

How the data were processed

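Per the labels' protocols, QuantSeq 3′ forward libraries were made from RNA isolated with the Quick-RNA MicroPrep kit. The authors deposited raw counts per gene symbol for 17 PSUK+ libraries and per Ensembl gene for 28 agonist libraries; per the submitters' processing notes, builds GRCm38 and mm10 and DESeq2 1.38.3 were used, in roles not given. The sources used here do not name the aligner, the counting tool or the annotation. Libraries were grouped by labelled sex and treatment. Genes were filtered with filterByExpr, scaled by TMM and fitted in R 4.3.3 with edgeR 4.0.16 (robust quasi-likelihood, 1 mean per group, 17 libraries), after testing on simulated data; the common biological coefficient of variation was 0.179. The SE is the fold change over the root of F. Alternatives used limma 3.58.1, DESeq2 1.42.0, other scalings, filters, covariates and left-out libraries. No 2 male libraries agreed within sampling noise (smallest chi-square per degree of freedom 6.26). Total counts were 14.4 to 21.03 M in male libraries, and molecular identifiers are not stated. Gene coordinates are from GENCODE M21, matched by symbol.

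The libraries, the 41 gene lists and the tests were chosen with earlier results of these data known; the heat shock and glucocorticoid lists were first written in earlier work after these data had been seen. Genes named were 13 fixed genes (1 is not reported here), up to 12 called genes per direction (at least 4 CPM, groups not overlapping, no clone name; filled to 6 by lowest p), up to 4 called members per list and direction or the 2 of lowest p, and up to 8 genes per direction of the sex difference. Ttr, Ddx3y, clone-named called genes, genes overlapping them and the list members Hsph1, Hsp90aa1, Hspa8, Cryab, Hspe1, Fkbp5, Tsc22d3, Nr3c1, Fos, Egr1, Nr4a1 and Arc were named after their values were seen.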

Additional observations from a re-analysis of the deposited data

Results flagged for a closer look

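For 48 named genes the inhibitor response differed between the sexes in edgeR's test of that difference (adjusted p under 0.05 over all genes). The fit was of all 17 libraries, and values below are the male minus the female log2 fold change. Some genes were named because they passed this test, and others for a low p in males, which enters it. The count of 48 therefore describes the named genes and gives no separate support. Over all genes tested, 2.41% were called for this difference. Among the genes called in males or next in order of p, the male response was the lower for Hspa1a (-3.21), Hspa1b (-2.99), Sgk1 (-2.16), Dusp5 (-2.02), Cdkn1a (-1.73), Sap30 (-1.40), Dnajb1 (-1.25), Errfi1 (-1.16), Ddit4 (-1.05) and Slc19a2 (-0.96), and the higher for Ptpn4 (0.58), Usf3 (0.81), Kat6a (0.86), Pdpr (1.29), Nr2c2 (1.39), Gm37233 (1.56), Lonrf3 (1.72) and Gm45640 (2.64). Among the other named genes it was the lower for Tmem267 (-2.53), Cish (-1.74), Vgf (-1.67), Rprm (-1.52), Npy (-1.45), Nfkbia (-1.23), Timp2 (-0.98), Gla (-0.98), Nov (-0.77) and Atf4 (-0.51), and the higher for Pdgfra (0.60), Lpcat3 (0.67), Srebf1 (0.78), Rora (0.97), Sall1 (0.99), Synpo2 (1.18), Notch3 (1.39), Slc4a4 (1.43), Tshz2 (2.01), Scgn (2.02), Ranbp3l (2.03), Ptar1 (2.11), Adcy1 (2.17), Dok6 (2.44), F13a1 (2.47), Shc3 (2.48), Slc22a6 (2.50), Unc13c (2.64), Slc26a7 (2.90) and Cd209f (3.33). With control male 3 left out, 13 of the 48 had an adjusted p under 0.05, and with the Ttr covariate 1 gene was called among all genes tested. Ttr was low in control females 1 and 3 and in inhibitor males 1 and 2, and its part in these differences was not tested beyond the covariate fit.

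In 8 of 121 groups of 6 inhibitor males checked, 1 library lay far from the other 5, and chance flags about 1 in 20 groups. Inhibitor male 1 was the lowest for B2m at 69.4 CPM and the highest for Xist at 11.1 CPM (without TMM scaling). Inhibitor male 2 was the highest for the MHC class II gene H2-DMa at 14.3 CPM and for Mylk, the myosin light chain kinase gene, at 24.3 CPM. Inhibitor male 3 was the highest for Cst7 at 1.05 CPM, Pdpr at 33.9 CPM and Unc13c at 108 CPM. Inhibitor male 6 was the highest for Fdft1, the squalene synthase gene, at 67.4 CPM.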

How the results depend on the processing

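With RLE or upper-quartile scaling, a filter of at least 1 CPM in 3 libraries, or mitochondrially encoded genes left out (chosen after seeing the data), the male counts of 18 called, 6 higher and 12 lower and the 413 genes of the sex difference stayed within 1.5 times; without a filter only the sex difference moved further, to 273. DESeq2 gave 190, 101, 89 and 1606, limma-voom 3, 1 and 2, the 9 male libraries alone 329, 163 and 166, and the Ttr covariate 8, 1, 7 and 1. Leaving out 1 male library at a time gave 1 to 18 called, 0 to 5 higher, 1 to 14 lower and 34 to 616 for the sex difference: 5 called without control male 2, 1 without control male 3, and 4, 1, 7, 1, 9 and 1 without inhibitor males 1 to 6 in turn, of which leaving out number 6 leaves males of 1 age. For the sex difference, 127 were called without control male 2 and 119, 138, 262 and 139 without inhibitor males 2, 3, 4 and 6. Without inhibitor males 1 and 2 together 2, 0, 2 and 48 were called. Chosen after seeing the data, the mitochondrial share as a covariate gave 89, 55, 34 and 1729, and the male libraries alone without control male 3 gave 28, 13 and 15. The cause of these differences was not tested. Over 114 named genes and 21 settings, 2154 of 2387 fold changes kept direction and call, 141 lost and 79 gained the call, and 13 changed sign, none of them called: Mapt (0.0011 with upper-quartile scaling, 0.020 with the mitochondrial covariate, 0.088 in males alone without control 3, -0.16 to 0.089 with 1 library left out, above 0 without control male 3 or inhibitor male 5), Irf7 (0.10 with the Ttr covariate, -0.28 to 0.13 with 1 left out, above 0 without control male 1), Cxcl10 (-1.001 to 0.042 with 1 left out, above 0 without control male 2), Trem2 (-0.078 with the mitochondrial covariate, -0.057 in males alone without control 3, -0.054 to 0.33 with 1 left out, below 0 without control male 3) and Cst7 (-0.14 to 0.61 with 1 left out, below 0 without control male 3 or inhibitor male 3). Tlr7 and Cxcl10 stood at a few CPM or less, where counting error is largest relative to the level. No paired analysis was possible because replicate numbers of PSUK+ libraries follow accession order and no label pairs them.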
